A study of Mus musculus with 6 samples.

Results

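RNA of the Wnt ligands, their receptors and their secreted inhibitors was examined in mouse brainstem at postnatal day 21. The group holds 38 of the 23985 loci with a gene name in the table, which lists 34632 loci in all. Members were chosen by gene name and comprise 18 *Wnt* ligand genes, 10 *Fzd* receptor genes, the coreceptor genes *Lrp5* and *Lrp6*, 4 *Sfrp* genes and 4 *Dkk* genes. Where a name lay on more than 1 locus, the locus with the most fragments was taken, which applied to *Sfrp2* alone.

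Wnt proteins are lipid-modified secreted ligands. They bind Frizzled receptors (encoded by *Fzd* genes), and with the coreceptors LRP5 and LRP6 they stabilize β-catenin, which acts with TCF/LEF factors on target genes; other Wnt signals run through the planar polarity and calcium branches. Secreted Frizzled-related proteins (SFRP) bind the ligands, and Dickkopf proteins (DKK) bind the coreceptors. In the brain the pathway is known for patterning, axon guidance, vessel growth and synapse assembly.

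Both genotypes were homozygous for a floxed *Hoxa5* allele on a mixed background, and both received tamoxifen by 4 intragastric injections of 50 µl from day 1 to day 4 (1 mg/ml on day 1, 1.5 mg/ml on the next days and 2 mg/ml on day 4). The *Hoxa5* cKO animals (Hoxa5flox/flox;CMV-CreERT2+/-) carried 1 copy of a tamoxifen-inducible Cre recombinase driven by the broadly active CMV promoter, so recombination was not limited to 1 cell type. The *Hoxa5* control animals (Hoxa5flox/flox;CMV-CreERT2-/-) had no Cre and came from the same crosses, so an effect of Cre itself cannot be told apart from the loss of *Hoxa5*. Each genotype was represented by 3 libraries, each made from the pooled RNA of 3 brainstems, so the spread between libraries is that between pools and not between animals.

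Libraries held 12034613 to 13202707 fragments. The locus with *Hoxa5*, which the assembly joins with *Hoxa6* and a non-coding gene, held 202, 337 and 77 fragments in control 1 to 3 and 279, 57 and 63 in cKO 1 to 3. At this locus, which is wider than *Hoxa5* itself, 2 libraries went against their labels, control 3 with a low count and cKO 1 with a high one. Directions given here rest on the labels, and values without both libraries are given where a call was made. The paper reports that the treatment severely reduced *Hoxa5* transcripts, by quantitative PCR in dissected brainstem subregions, and cells with HOXA5 protein in the brain. Those measurements were not made on these pools. Of 15 lists of cell type markers, 3 held called genes, all lower in the libraries labelled cKO: 4 of 6 cerebellar granule neuron genes, 4 of 6 Purkinje cell genes and 3 of 4 Bergmann glia genes. No gene of the other 12 lists was called. The lists were written with earlier results of these data known. The paper reports several of the called markers, such as *Gabra6*, *Car8* and *Slc1a3*, as downregulated in the same libraries, so these calls are not independent support. Markers of brainstem neurons were present (8 of 8 tested, 293 to 378 CPM summed, where CPM are fragments scaled to library depth after TMM), and 6 forebrain markers summed to 6.51 to 8.53 CPM. In bulk tissue, fewer cells of a type and less RNA per cell cannot be told apart. Neither can be told apart from a difference in the cerebellar tissue taken along at dissection, which was not tested.

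Sequence shared between family members was searched for by exact match, and near matches were examined only for *Wnt7a* against *Wnt7b*. Of the windows of 75 bases, the read length, along the longest coding transcript of each member in GENCODE vM21, none occurred in the transcript of another member on either strand. In 32 of the 38 members no window occurred in a transcript of any other gene, and the highest share was 15.9%, for *Fzd5*. *Wnt7a* and *Wnt7b* are the closest pair that the results turn on, so the 75 coding bases of *Wnt7a* most like *Wnt7b* are shown, with the bases that differ in capitals. The *Wnt7a* stretch lies at chr6:91365865-91365939 and the *Wnt7b* stretch at chr15:85537405-85537479, both on the minus strand of GRCm38 and in exon 4 of 4. They differ at 6 positions, and the median over the 973 windows of *Wnt7a* coding sequence was 17 differing bases.
Wnt7a: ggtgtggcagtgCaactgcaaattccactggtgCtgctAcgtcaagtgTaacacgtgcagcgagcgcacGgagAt
Wnt7b: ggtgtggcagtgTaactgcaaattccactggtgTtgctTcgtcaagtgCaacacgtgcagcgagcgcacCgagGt

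Levels were compared between genes as FPKM, in which fragments are scaled by transcript length and library depth. The 5 ligand genes with the highest mean FPKM were *Wnt7b* at 4.82, *Wnt3* at 4.00, *Wnt7a* at 3.40, *Wnt5a* at 3.18 and *Wnt4* at 2.25. They held 74.8% to 79.6% of the summed ligand FPKM of a library. *Wnt7b* exceeded *Wnt3* in 5 of 6 libraries. The place of *Wnt7a* differed between the genotypes: it exceeded *Wnt3* and *Wnt5a* in the 3 control libraries and lay below both in the 3 cKO libraries. *Wnt4* lay below *Wnt5a* in 6 of 6 libraries, and *Wnt2b* at 1.70 lay below *Wnt4* in 6 of 6. *Wnt6* (0.957) and *Wnt5b* (0.862) followed, and the 10 remaining ligand genes had means under 0.5, down to 0.0052 for *Wnt3a*.

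Among receptor genes *Fzd3*, whose product guides axons through the planar polarity branch, stood highest with a mean FPKM of 16.3, and *Fzd1* followed with 9.14. *Fzd1* lay below *Fzd3* and above *Fzd10* in 6 of 6 libraries, and *Fzd3* and *Fzd1* together held 50.9% to 55.7% of the summed receptor FPKM. Next came *Fzd10* (3.98), *Fzd4* (3.56), *Fzd9* (3.10), *Fzd7* (3.00), *Fzd8* (2.72), *Fzd6* (2.50) and *Fzd2* (2.40). From *Fzd4* on, each of these lay below the one before it in only 3 or 4 of 6 libraries, so their order was not settled within the spread. *Fzd5* was the lowest receptor gene in 6 of 6 libraries, with 0.973.

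The coreceptor gene *Lrp6* had a mean FPKM of 12.9 and *Lrp5* of 2.36, with a ratio of 4.57 to 6.16 over the 6 libraries. Of the inhibitors, *Sfrp1* (4.59) exceeded *Sfrp2* (3.78) in 6 of 6 libraries, *Sfrp5* (3.42) lay below *Sfrp2* in 4 of 6, and *Sfrp4* had 0.776. *Dkk3*, a divergent family member that does not act as a typical Wnt antagonist, had a mean of 15.2 and held 96.8% to 98.4% of the summed *Dkk* FPKM. The genes of the DKK proteins known to bind the coreceptors were near 0, at 0.302 for *Dkk2*, 0.0530 for *Dkk1* and 0.0407 for *Dkk4*.

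**Figure D1:**
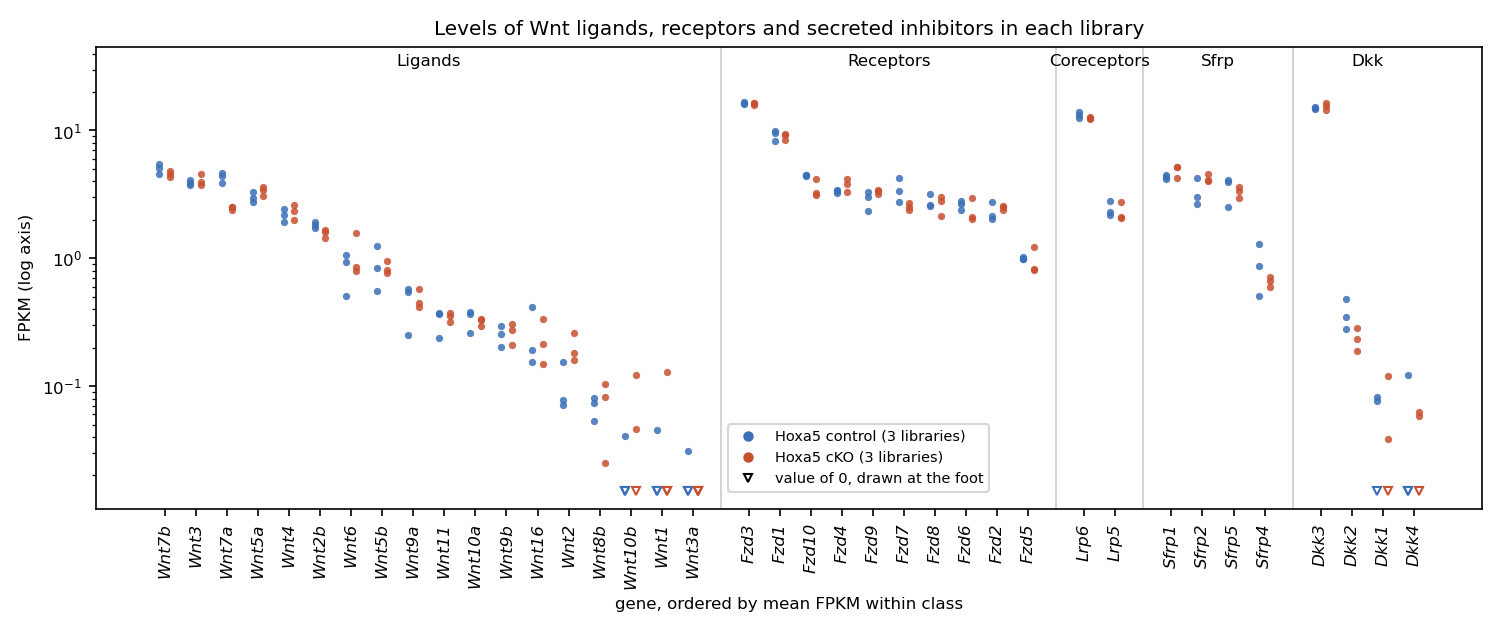
FPKM on a log axis for the 38 genes by class, ordered by mean within a class, with 1 point for each of the 3 *Hoxa5* control (blue) and 3 *Hoxa5* cKO (red) libraries and open triangles for values of 0. The red points of *Wnt7a* lie below its blue points (2.38 to 2.54 against 3.90 to 4.66), and *Fzd3*, *Lrp6* and *Dkk3* stand above the rest of their classes.

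Of the 38 members, 29 had enough fragments to be tested between genotypes, and 9 did not: *Wnt1*, *Wnt2*, *Wnt3a*, *Wnt8b*, *Wnt10a*, *Wnt10b*, *Wnt16*, *Dkk1* and *Dkk4*. None of the 9 exceeded 8 fragments in a library. A count of 0 allows up to 3 fragments, or 0.227 to 0.249 CPM before TMM scaling. *Wnt1*, *Wnt3a*, *Wnt10b*, *Dkk1* and *Dkk4* had a count of 0 in at least 1 library and were at or near the limit of detection at this depth. *Wnt2*, *Wnt8b*, *Wnt10a* and *Wnt16* had fragments in every library, but too few to be tested. *Wnt1* and *Wnt3a*, known for early patterning of the dorsal neural tube, had 4 fragments and 1 fragment over the 6 libraries, and *Wnt10a* had 5 to 8 in each.

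One of the 29 genes tested was called by edgeR's quasi-likelihood test at a Benjamini-Hochberg adjusted p under 0.05, where 0.531% of all 21854 loci tested were called in either direction and 0.503% as lower. The gene was *Wnt7a*, and it fell in the libraries labelled cKO. At an unadjusted p under 0.05 there were 5 members, or 17.2% of those tested, against 6.94% of all loci. Of these, 3 were lower, where 4.03% of all loci were, and 2 were higher, where 2.91% were. The median log2 fold change of the 29 members was -0.0035 and that of all loci was 0.0034, with 15 members below 0 and 14 above. Libraries of the 2 genotypes did not overlap in CPM for 4 members, or 13.8%, against 12.2% of all loci. They were *Wnt7a*, *Wnt2b* and *Fzd10*, lower in the cKO libraries as were 6.54% of all loci, and *Fzd4*, higher as were 5.61%.

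*Wnt7a* encodes a ligand known from cerebellar granule cells, where it acts on the presynaptic side of mossy fibre contacts, and from vessel growth. Its locus (chr6:91363983-91411369, minus strand, mm10) carries 1 transcript. It held 166, 155 and 150 fragments in the control libraries and 87, 91 and 95 in the cKO libraries. Every library labelled cKO lay below every library labelled control, and control 3 and cKO 1, which went against their labels at the *Hoxa5* locus, stayed with their label's group here. The log2 fold change was -0.79 (SE 0.12, 95% interval -1.04 to -0.54; edgeR, adjusted p = 0.0032), a level 1.72-fold lower. As FPKM, *Wnt7a* was 4.31 ± 0.39 in control and 2.48 ± 0.09 in cKO libraries (SD, n = 3 each). The paper had already taken *Wnt7a* as a candidate from the same libraries, so the call is not independent support. By quantitative PCR the paper reports *Wnt7a* as lower in dissected medulla oblongata of *Hoxa5* cKO animals. By in situ hybridization in wild-type mice it lists *Wnt7a* in the hypoglossal nucleus.

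Without control 3 and cKO 1 together, the log2 fold change of *Wnt7a* was -0.86 (edgeR, adjusted p = 0.0038), and leaving out each library in turn gave -0.86 to -0.72 with adjusted p of 0.0025 to 0.029. The call ended with limma on log2(FPKM + 1), where the difference was -0.61 (adjusted p = 0.29) and no locus of the series was called, with 1298 at an unadjusted p under 0.05. It ended too with limma on log2(FPKM + 0.1), with -0.77 and an adjusted p of 0.31.

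Granule neuron markers, listed with earlier results of these data known, moved in the same direction as *Wnt7a*. The summed level of the 6 markers (*Gabra6*, *Cbln3*, *Fat2*, *Neurod1*, *Pax6* and *Barhl1*) was 547, 364 and 286 CPM in control 1 to 3 and 111, 142 and 119 CPM in cKO 1 to 3. None of them was at 0 in any library, 4 were called lower, and *Pax6* and *Barhl1* were not. Within the controls *Wnt7a* stood in the same order as the markers, at 13.6, 12.6 and 11.3 CPM in control 1 to 3, and spanned 1.20-fold where the markers spanned 1.91-fold. Within the cKO libraries the order was not the same, with *Wnt7a* at 7.26, 6.98 and 7.50 CPM. Purkinje cell markers had sums of 165, 94.8 and 98.2 CPM in control 1 to 3 and 43.0 to 50.8 CPM in cKO libraries. Bergmann glia markers had 414, 382 and 368 CPM in control 1 to 3 and 305 to 330 CPM in cKO libraries. Within the controls they too stood in the order of *Wnt7a*, with a span of 1.13-fold, so that order was not particular to the granule markers. With the mean log2 CPM of the granule markers as a covariate, the log2 fold change of *Wnt7a* was -0.40 (SE 0.35, 95% interval -1.15 to 0.34; edgeR, adjusted p = 1.00). That mean was 4.78 to 5.48 in controls and 3.68 to 3.98 in cKO libraries, so genotype and marker level cannot be told apart in these libraries.

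**Figure D2:**
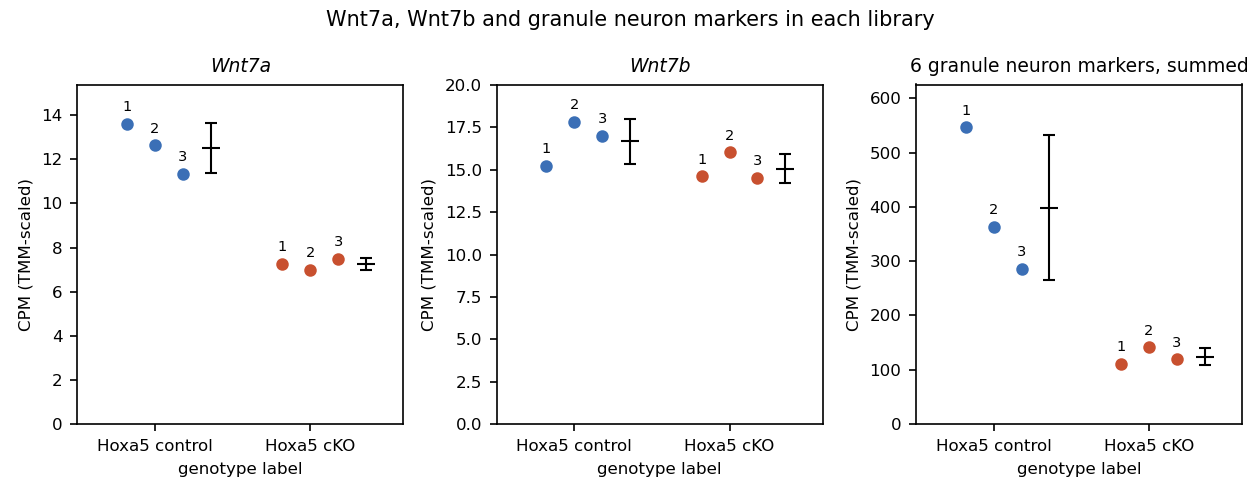
CPM on linear axes from 0 for *Wnt7a*, *Wnt7b* and the sum of 6 granule neuron markers, 1 numbered point for each library, with mean and SD (n = 3) as bars at the side. *Wnt7a* and the markers lie lower in all 3 libraries labelled cKO, while *Wnt7b* overlaps (14.5 to 16.0 against 15.2 to 17.8 CPM).

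*Wnt7b*, the paralog that shares the RECK and GPR124 receptor complex of brain endothelium with *Wnt7a*, held 186, 219 and 225 fragments in control and 175, 209 and 184 in cKO libraries. The genotypes overlapped, with a log2 fold change of -0.15 (SE 0.10, 95% interval -0.36 to 0.06; edgeR, adjusted p = 0.86). The log2 ratio of *Wnt7a* to *Wnt7b* FPKM was -0.23 ± 0.22 in control and -0.88 ± 0.13 in cKO libraries (SD, n = 3 each). It was lower in every cKO library, by 0.65 on average, with p = 0.1 by a two-sided exact permutation test, the smallest that 3 against 3 libraries allow. The ratio uses the same *Wnt7a* values as the call above and adds no independent support to it. *Wnt7a* made up 16.0% to 21.0% of the ligand FPKM in controls and 10.7% to 11.9% in cKO libraries. The summed ligand FPKM overlapped between genotypes (22.2 to 25.0 and 21.2 to 23.7), and without *Wnt7a* it was 19.5 ± 1.7 in control and 19.9 ± 1.2 in cKO libraries (SD, n = 3 each).

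**Figure D3:**
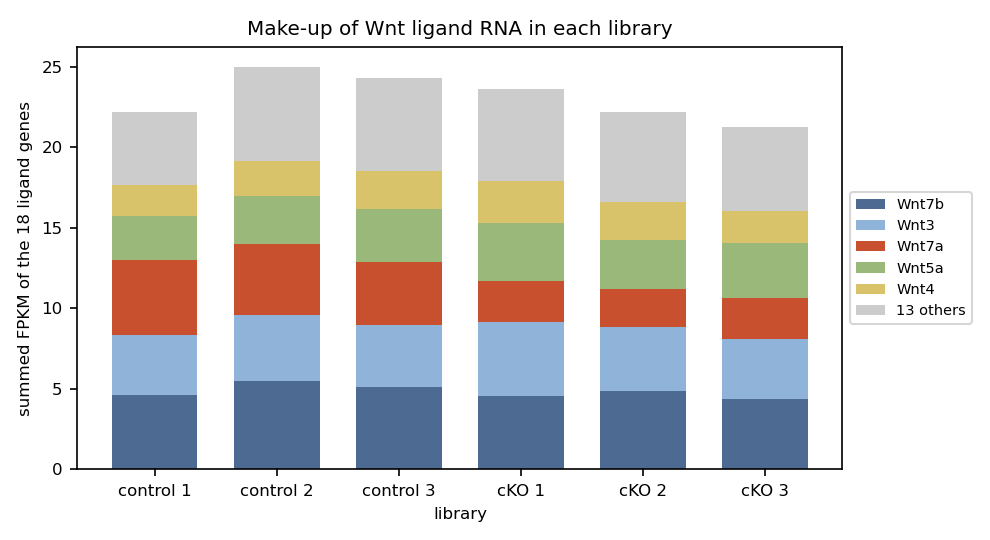
Stacked bars of the FPKM of the 18 ligand genes in each library, with *Wnt7b*, *Wnt3*, *Wnt7a*, *Wnt5a* and *Wnt4* drawn singly and 13 others joined. The *Wnt7a* segment is smaller in the 3 cKO libraries, and the whole bars overlap in height.

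None of the other 10 ligand genes tested was called. *Wnt5a*, the main ligand of the planar polarity branch, held 144, 166 and 190 fragments in control and 196, 179 and 206 in cKO libraries. Only the lowest cKO library fell inside the control range, and the log2 fold change was 0.22 (SE 0.11; edgeR, adjusted p = 0.75). *Wnt2b*, a β-catenin ligand of the dorsal midline, held 74, 77 and 89 fragments in control and 60, 74 and 74 in cKO libraries. On the CPM scale its genotypes did not overlap, at a log2 fold change of -0.20 (SE 0.14; edgeR, adjusted p = 0.87).

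*Wnt3*, a β-catenin ligand made by Purkinje cells, held 139 to 156 fragments in control and 146 to 164 in cKO libraries. *Wnt4*, which acts in kidney and gonad formation and in commissural axon guidance, held 102 to 140 and 111 to 136. Their log2 fold changes were 0.07 and 0.09, with overlapping genotypes. *Wnt5b*, *Wnt6*, *Wnt9a*, *Wnt9b* and *Wnt11* held 7 to 37 fragments per library, and each of their 95% intervals reached past a 1.5-fold change in at least 1 direction, from -0.71 for *Wnt11* to 1.07 for *Wnt6* on the log2 scale. At this depth their changes were not resolved.

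Several ligand genes are neighbours in the genome. *Wnt9b* and *Wnt3* lie 24353 bases apart on chromosome 11 and differed in mean FPKM (0.256 and 4.00). On the same chromosome *Wnt3a* and *Wnt9a* lie 16178 bases apart, with 0.0052 and 0.468. *Wnt6* and *Wnt10a* (chromosome 1, 6699 bases apart) had 0.957 and 0.327, and *Wnt10b* and *Wnt1* (chromosome 15, 11706 bases apart) had 0.0347 and 0.0290. Both genes of the first pair were tested, 1 gene of each of the next pairs, and neither gene of the last.

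No receptor gene was called among 10 tested by edgeR and DESeq2 or among the 9 fitted with limma, where *Fzd5* fell under the FPKM filter. In edgeR 3 of the 10 had an unadjusted p under 0.05, 2 lower and 1 higher, against 6.94% of all loci. *Fzd7*, a receptor of the β-catenin branch in progenitor cells, held 158, 198 and 139 fragments in control and 109, 128 and 134 in cKO libraries. All cKO counts were under the control counts, but in CPM control 3 and cKO 3 overlapped. The log2 fold change was -0.42 (SE 0.14, 95% interval -0.71 to -0.12; edgeR, adjusted p = 0.40), and it was -0.25 without control 2, which held the most fragments.

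*Fzd10* held 143, 143 and 156 fragments in control and 130, 108 and 109 in cKO libraries. Its genotypes did not overlap, with cKO 1 nearest to the controls, and the log2 fold change was -0.34 (SE 0.12, 95% interval -0.60 to -0.09; edgeR, adjusted p = 0.46). *Fzd4*, the receptor of Norrin in vessel growth, held 230, 245 and 241 fragments in control and 262, 270 and 287 in cKO libraries. All 3 cKO libraries lay above the controls, at a log2 fold change of 0.20 (SE 0.08, 95% interval 0.02 to 0.37; edgeR, adjusted p = 0.65). The sum of 8 endothelial markers overlapped between the genotypes (361 to 398 CPM and 381 to 432 CPM), and none was called. Taken singly, *Slc2a1* was higher and *Tek* lower in every cKO library, with log2 fold changes of 0.23 and -0.24. The other endothelial markers overlapped, where 12.2% of all loci did not.

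*Fzd3* had the narrowest interval of the family, with 2153 to 2371 fragments in control and 2124 to 2306 in cKO libraries and a log2 fold change of -0.0035 (95% interval -0.10 to 0.09). The genotypes overlapped for *Fzd1* (-0.03), *Fzd2* (0.10), *Fzd5* (-0.07), *Fzd6* (-0.15), *Fzd8* (-0.05) and *Fzd9* (0.20), given as log2 fold changes. For 8 of the 10 receptor genes the 95% interval lay within a 1.5-fold change either way. The exceptions were *Fzd7* and *Fzd10*.

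The coreceptor gene *Lrp6* held 1266, 1327 and 1359 fragments in control and 1121, 1233 and 1322 in cKO libraries. The genotypes overlapped through cKO 3, and the log2 fold change was -0.10 (SE 0.05, 95% interval -0.22 to 0.01; edgeR, adjusted p = 0.79). *Lrp5* overlapped as well, with 158 to 190 and 147 to 180 fragments and a log2 fold change of -0.08.

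Among the secreted inhibitors *Sfrp2* held 60, 85 and 58 fragments in control and 78, 89 and 98 in cKO libraries. Control 2 lay within the cKO range, and the log2 fold change was 0.38 (SE 0.17, 95% interval 0.03 to 0.74; edgeR, adjusted p = 0.66). It was 0.24 without control 3 and 0.60 without control 2. Of the 75-base windows of *Sfrp2*, 10.5% also occur in the annotated non-coding gene *Gm26771*, and it is not stated whether counting used strand, so its reads are partly uncertain. *Sfrp1* (212 to 246 and 223 to 262 fragments), *Sfrp5* (53 to 87 and 59 to 83) and *Sfrp4* (11 to 27 and 14 to 16) overlapped between genotypes, with log2 fold changes of 0.14, 0.06 and -0.39. The value of *Sfrp4* was -0.056 without control 2, which held the most fragments, and -0.66 without control 1. *Dkk3* held 641 to 712 fragments in control and 669 to 715 in cKO libraries, a log2 fold change of 0.05 (95% interval -0.08 to 0.19). *Dkk2* held 24, 14 and 19 against 14, 10 and 12 fragments, with a log2 fold change of -0.65 (SE 0.33, 95% interval -1.36 to 0.05; edgeR, adjusted p = 0.77), and its interval reached past a 2-fold fall. Without control 1 the value was -0.43.

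Of the 28 members tested and not called, 18 had a 95% interval within a 1.5-fold change either way and 25 within a 2-fold change. Summed by class, receptor FPKM was lower in every cKO library (46.5 to 47.2 against 47.8 to 49.0 in control). Summed *Sfrp* FPKM was higher in every cKO library (12.6 to 13.8 against 11.6 to 12.4 in control). The coreceptor and *Dkk* sums overlapped. These sums were not tested.

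**Figure D4:**
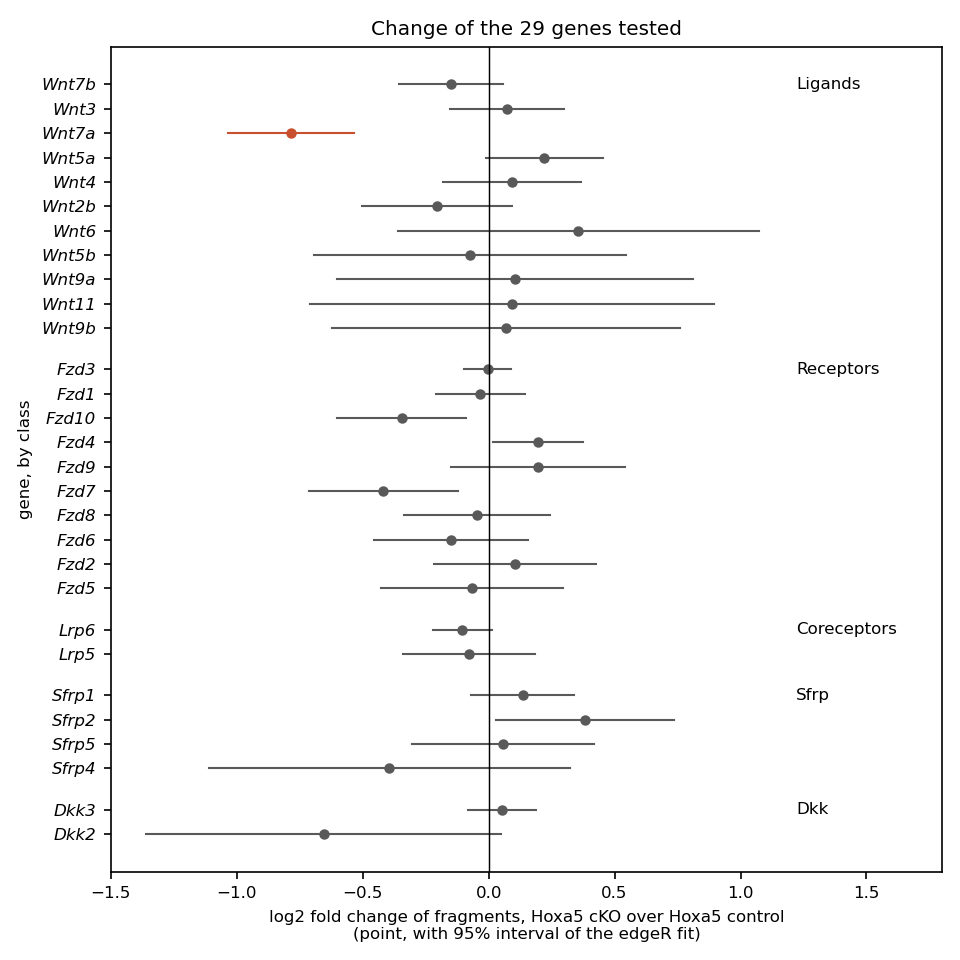
Log2 fold change of fragments (cKO over control) with its 95% interval from the edgeR fit for the 29 genes tested, by class. *Wnt7a* (red, called) lies at -0.79, and the intervals of *Fzd7*, *Fzd10*, *Fzd4* and *Sfrp2* leave 0 out without reaching the adjusted threshold.

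The other genes of the pathway were taken from 7 lists. They held 82 genes, of which 78 on 77 loci were tested (*Kremen1* and *Znrf3* share 1 locus), and none was called by edgeR (lowest adjusted p = 0.13) or DESeq2, or by limma among the 70 loci that it fitted, where edgeR called 0.531% of all loci. At an unadjusted p under 0.05 there were 6 of the 77 loci, 4 lower and 2 higher, against 6.94% of all loci, and the median log2 fold change was -0.0069. Non-overlap of the genotypes in CPM, given below for single genes, was found for 12.2% of all loci.

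Among genes of ligand secretion, the acyltransferase gene *Porcn* held 529, 484 and 509 fragments in control and 427, 504 and 442 in cKO libraries, with a log2 fold change of -0.15 (SE 0.07). The carrier gene *Wls* held 692 to 713 and 612 to 715, with -0.07 (SE 0.07). Both overlapped between the genotypes. Among other receptors, *Ror2*, which encodes a receptor tyrosine kinase for WNT5A, held 24, 19 and 26 fragments in control and 35, 35 and 38 in cKO libraries. The genotypes did not overlap, at 0.65 on the log2 scale (SE 0.23, 95% interval 0.17 to 1.12; edgeR, adjusted p = 0.46). The related *Ror1* overlapped, with -0.14 (SE 0.16).

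Of other secreted modulators, *Sostdc1*, an inhibitor that binds LRP6, and *Rspo3*, an enhancer of Wnt signals, had log2 fold changes of 0.24 (SE 0.19) and 0.23 (SE 0.21), with overlapping genotypes. Of the cytoplasmic genes, *Dvl1* and *Dvl2*, which encode scaffold proteins acting directly after the receptors, had -0.11 (SE 0.05) and -0.15 (SE 0.10). *Dvl1* held 1157 to 1361 fragments in control and 1095 to 1225 in cKO libraries, which did not overlap in CPM.

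Of the nuclear factors, the corepressor gene *Tle3* held 639, 625 and 608 fragments in control and 506, 547 and 515 in cKO libraries. All cKO libraries were lower, at -0.26 on the log2 scale (SE 0.07, 95% interval -0.39 to -0.12; edgeR, adjusted p = 0.13). *Tle2* had -0.27 (SE 0.11; edgeR, adjusted p = 0.59), with cKO 2 inside the control range. Of the feedback targets, the cell cycle gene *Ccnd1*, whose locus also carries a microRNA gene, held 392, 353 and 436 fragments in control and 333, 319 and 334 in cKO libraries. Its genotypes did not overlap, at -0.26 (SE 0.08; edgeR, adjusted p = 0.31). *Tnfrsf19*, which encodes a receptor of the TNF family, had -0.18 (SE 0.07; edgeR, adjusted p = 0.64). *Nkd2* and *Tcf7* lay higher in CPM in every cKO library than in any control. Their log2 fold changes were 0.29 (SE 0.14; edgeR, adjusted p = 0.75) and 0.31 (SE 0.23; edgeR, adjusted p = 0.89). *Axin2* overlapped, with -0.03 (SE 0.10). No feedback target passed the test (13 of 14 tested, median log2 fold change 0.05). Of the planar polarity genes, *Vangl1* and *Fuz* had log2 fold changes of 0.28 (SE 0.12) and 0.22 (SE 0.13), and the genotypes of *Fuz* did not overlap.

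**Figure D5:**
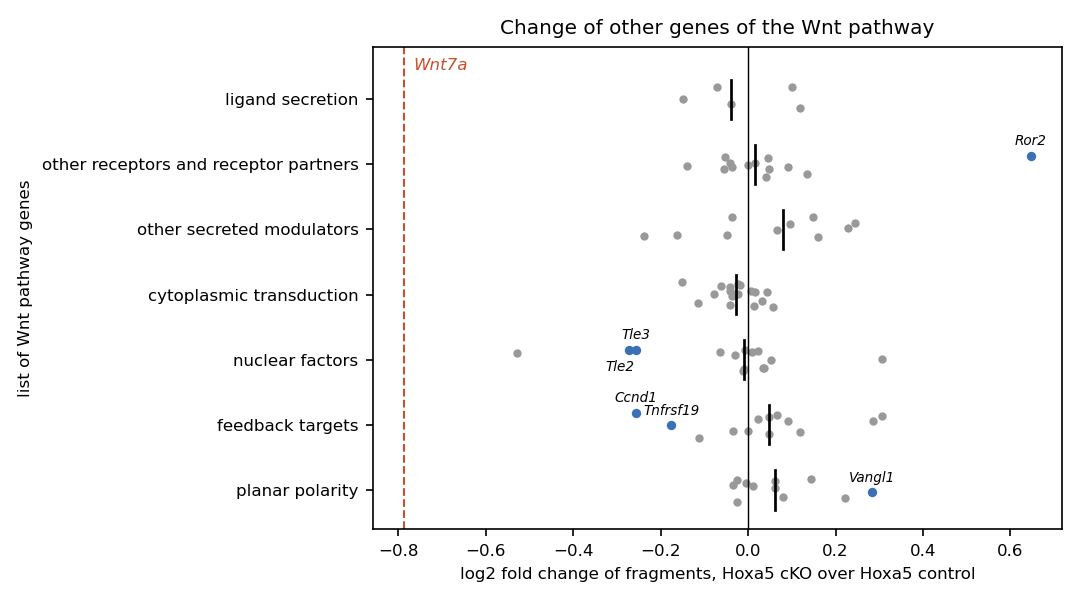
Log2 fold changes (cKO over control) of the other pathway genes in 7 lists, with 1 point for each locus tested, a black bar at each list's median and blue points for an unadjusted p under 0.05. The points lie between -0.53 and 0.65, and the dashed line marks *Wnt7a* at -0.79.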

How the data were processed

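RNA was depleted of ribosomal RNA and sequenced from stranded libraries, 3 pools per genotype. Per the labels, the authors used CASAVA 1.6, TopHat2 2.0.9, Cufflinks 2.2.0 and Cuffdiff on mm10. The deposited table gives raw fragment counts per locus, all checked to be whole, and FPKM, which Cuffdiff had scaled between libraries; 2 columns of scaled fragments were not used. The table numbers the replicates of a genotype, and these numbers were taken as names.

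Counts were normalized by TMM, filtered with filterByExpr and compared by the quasi-likelihood test of edgeR 4.0.16 (R 4.3.3) over 21854 loci, with Benjamini-Hochberg adjustment at 0.05 and a common coefficient of biological variation of 0.0552. Ratios were tested by exact permutation in scipy 1.17.1. Alternatives were DESeq2 1.42.0, limma 3.58.1 on log2(FPKM + 1) or log2(FPKM + 0.1), other scaling and filters, loci summed by name, a replicate block, libraries left out and a granule marker covariate. The fits were tested on simulated data.

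All 38 members are accounted for, and of each pathway list called genes and the 2 with the smallest p are named. *Nkd2*, *Tcf7* and *Axin2* were added among the feedback targets. The members and lists were chosen with earlier results of these data known. Intervals and floors cover counting error or the spread between pools only. Window sequences came from GENCODE vM21 on GRCm38, the same assembly as mm10.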

Additional observations from a re-analysis of the deposited data

How the results depend on the processing

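*Wnt7a* was below 0 in all 17 alternatives and called in 14, with adjusted p of 0.00017 to 1.00 over them, and no other member or pathway gene was called in any alternative that fitted it. The filter of 50 fragments fitted 22 of the 29 members, and the limma fits 21, leaving out *Wnt5b*, *Wnt6*, *Wnt9a*, *Wnt9b*, *Wnt11*, *Sfrp4* and *Dkk2* in both and *Fzd5* with limma. No member was called with limma on log2(FPKM + 1), with limma on log2(FPKM + 0.1) or with the granule marker covariate (0 each), where all loci gave 0, 1 and 1 calls and 409 loci had an unadjusted p under 0.05 in the last. Of all loci 116 were called; no filter gave 221 and at least 50 fragments gave 76. Leaving out 1 library gave 44 (without control 1) to 126 (without control 3) and 65 without cKO 3, with 1 member called each time.

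The replicate numbers did not pair the libraries (correlations of deviations 0.052, -0.19 and 0.027 over 13494 loci). Among libraries with unlike numbers the correlations were -0.13 to 0.15, the highest for control 3 with cKO 2. The paper describes the controls as littermates, and a pairing by litter under other numbers was not tested. With the replicate numbers as a block 130 loci were called, and *Wnt7a* had -0.78 (edgeR, adjusted p = 0.0047).

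Of the 29 members, 10 kept their sign in all 17 alternatives, and *Sfrp4* and *Dkk2* in the 14 that fitted them. Log2 fold changes that changed sign, all uncalled and with the cause not tested, were these. Without control 3 and cKO 1 together, *Wnt3* had -0.0016, *Wnt5b* 0.32, *Wnt9a* -0.14, *Wnt9b* -0.017, *Fzd1* 0.050 and *Fzd3* 0.0028. With the granule covariate, *Wnt3* had -0.10, *Wnt4* -0.45, *Wnt5a* -0.41, *Wnt6* -1.55, *Wnt9b* -0.43, *Fzd1* 0.21, *Fzd7* 0.0061, *Sfrp1* -0.23, *Sfrp5* -0.059 and *Dkk3* -0.15. *Fzd3* had 0.0090 with upper-quartile factors and 0.0023 with at least 50 fragments. *Sfrp5* had -0.055 and -0.064 with limma on log2(FPKM + 1) and log2(FPKM + 0.1). Leaving out 1 library gave *Wnt5b* -0.32 to 0.27, *Wnt9a* -0.20 to 0.30, *Wnt9b* -0.057 to 0.20, *Wnt11* -0.090 to 0.20, *Fzd1* -0.11 to 0.025, *Fzd3* -0.011 to 0.0012, *Fzd5* -0.28 to 0.035, *Fzd8* -0.13 to 0.080, *Lrp5* -0.20 to 0.026, *Sfrp5* -0.088 to 0.21 and *Dkk3* -0.0025 to 0.11. With no change of sign it gave *Sfrp2* 0.24 to 0.60, *Sfrp4* -0.66 to -0.056 and *Dkk2* -0.82 to -0.43. The log2 difference of the *Wnt7a* to *Wnt7b* ratio was -0.64 on TMM-scaled fragments and -0.73 to -0.52 with 1 library left out. With 3 pools per genotype, tested members with at most 37 fragments in every library had intervals that reached past a 1.5-fold change.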
